A study of Mus musculus with 4 samples.

Results

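The cells described here are early granulocyte precursors of the fetal mouse liver, picked because 4 genes of the primary (azurophil) granule filled at least 0.5% of their RNA. Elane, Mpo, Prtn3 and Ctsg together had to reach that share of a barcode's unique molecular identifiers (UMIs, each standing for 1 captured RNA molecule), while the secondary granule genes Camp, Ltf and Ngp together had to stay under 1%. A barcode also needed 300 or more detected genes, with no more than 25% of its UMIs mitochondrial. The cells were thus selected on measured RNA shares. The rule found 447 of 15893 kept fetal barcodes, and 27874 barcodes were kept in the whole series. They are called primary granule cells below, because markers outside the rule were mixed, with monocyte lineage RNA in some of the cells.

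The fetal IHG library came from livers of male fetuses at E18.5 (embryonic day) whose mothers were hyperglycemic in pregnancy (IHG, intrauterine hyperglycemia). The fetal Ctrl library came from male fetuses of the same age from control mothers. Livers from 3 pregnant mice were pooled into each fetal library, and neither how hyperglycemia was induced nor the mouse strain is given in the sources used here. Adult libraries at 8 weeks, IHG and Ctrl, also pooled 3 animals each and appear only as a check. Each group is therefore 1 library of droplet-based 3′ RNA counts, and no difference below has a replicate or a test. Intervals are exact 95% intervals and cover counting error only, not the spread between litters, dissociations or captures.

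Promyelocytes are the stage at which a granulocyte precursor builds its first granules. They load serine proteases and myeloperoxidase into azurophil granules, still divide, and need a large endoplasmic reticulum to fold this cargo. Once they become myelocytes, they shut off those genes and turn to the secondary granule proteins lactoferrin (Ltf), cathelicidin (Camp) and Ngp. In late gestation the liver still makes blood, which is why such cells can be caught there.

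Elane encodes neutrophil elastase (mm10, chromosome 10, 79886247 to 79888215, plus strand), and Prtn3 encodes proteinase 3 and lies just before it on the same chromosome (79874476 to 79883174, plus strand). The serine protease gene Prss57, which the rule did not use, also lies on chromosome 10 (79781474 to 79790961, minus strand). Ctsg, for cathepsin G, lies on chromosome 14 (56099881 to 56102574, minus strand), and Mpo, for the haem enzyme myeloperoxidase, on chromosome 11 (87793581 to 87804413, plus strand). All are protein-coding genes in GENCODE M21.

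The sequences before the starts of the 4 rule genes are shown because these genes define the cells. They are the 5′ to 3′ gene-strand sequence from the RefSeq promoter table (GRCm38.p6), beginning 250 bases before the RefSeq start. Each is printed up to the base before the first GENCODE protein-coding transcript that starts in that window. Capitals mark matches on either strand to GAGGAA (PU.1), AACTG (MYB) and TGTGGT (RUNX), the fourth motif searched being TTGCNNAA (C/EBP). The factors named are known regulators of granulocyte genes. The windows are chr10:79886062-79886246 for Elane, chr10:79879417-79879613 for Prtn3, chr11:87793534-87793580 for Mpo and chr14:56102575-56102824 on the minus strand for Ctsg. The RefSeq start of Prtn3 lies 5191 bases after the first GENCODE start, so its window is inside the GENCODE span given above.
Elane: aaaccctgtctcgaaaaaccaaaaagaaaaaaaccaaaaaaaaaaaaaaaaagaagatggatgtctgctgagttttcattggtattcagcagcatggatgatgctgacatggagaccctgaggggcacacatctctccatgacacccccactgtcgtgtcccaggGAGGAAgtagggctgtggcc
Prtn3: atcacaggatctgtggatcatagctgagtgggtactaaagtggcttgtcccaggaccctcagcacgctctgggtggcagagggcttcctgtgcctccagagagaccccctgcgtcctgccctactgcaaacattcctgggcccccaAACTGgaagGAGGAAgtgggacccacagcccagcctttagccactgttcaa
Mpo: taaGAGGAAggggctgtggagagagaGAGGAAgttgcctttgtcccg
Ctsg: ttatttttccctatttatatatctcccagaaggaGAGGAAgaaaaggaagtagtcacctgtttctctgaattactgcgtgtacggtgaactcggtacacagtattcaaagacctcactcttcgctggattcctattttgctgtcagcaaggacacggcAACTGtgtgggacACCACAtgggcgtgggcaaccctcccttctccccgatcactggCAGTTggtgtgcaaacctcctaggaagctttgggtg

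In the 250 bases before the RefSeq start, all 4 genes held GAGGAA, which 23.3% of 32851 promoter windows of that length also held. The match began 85 bases before the start in Elane, 95 in Prtn3 and 216 in Ctsg, and Mpo had matches at 247 and 224 bases. AACTG was present in Prtn3, Mpo and Ctsg and in 39.1% of all windows. TGTGGT was present in Ctsg and in 14.0% of all windows. None of the 4 windows held TTGCNNAA, which 9.56% of all windows held. These are letter matches and not binding data.

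Primary granule cells were more frequent in the IHG library. They were 381 of 8192 kept barcodes in the IHG library (4.65%, 4.20 to 5.13) and 66 of 7701 in the Ctrl library (0.857%, 0.663 to 1.09). The IHG share was 5.43-fold the Ctrl share, a log2 ratio of 2.44 (2.06 to 2.84). Among barcodes under 20% haemoglobin UMIs the shares were 6.26% in IHG and 1.35% in Ctrl (log2 ratio 2.21). Red cell lysis and dissociation can set both shares, and their part in the difference was not tested. Myelocytes, here the barcodes with Camp, Ltf and Ngp at 1% of UMIs or more, numbered 2175 in IHG and 996 in Ctrl. Within primary granule cells plus myelocytes, the earlier cells were 14.9% in IHG (13.5 to 16.3) and 6.21% in Ctrl (4.84 to 7.84), a log2 ratio of 1.26 (0.88 to 1.66).

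The share was also higher in IHG under each of the other settings tried for it. When Ms4a3, Prss57, Ctsc and Fcnb at 0.3% or more replaced the 4 primary granule genes, 41 IHG and 3 Ctrl barcodes qualified, and the log2 ratio was 3.68. Of these, 19 IHG barcodes and 1 Ctrl barcode were also primary granule cells. Within primary granule cells Ctsc was higher in IHG, Ms4a3 was level and Prss57 was lower. In other kept barcodes Ctsc held 87.0 of 1e+06 UMIs in IHG and 32.7 in Ctrl. A choice that uses Ctsc is thus not an independent check of the share. In the adult livers, 0 of 6786 IHG barcodes met the rule, which allows a share of up to 0.0442%, and 2 of 5195 Ctrl barcodes did (0.0385%). Between the fetal libraries 19 cell barcodes were shared, 1 of them in a primary granule cell.

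**Figure D1:**
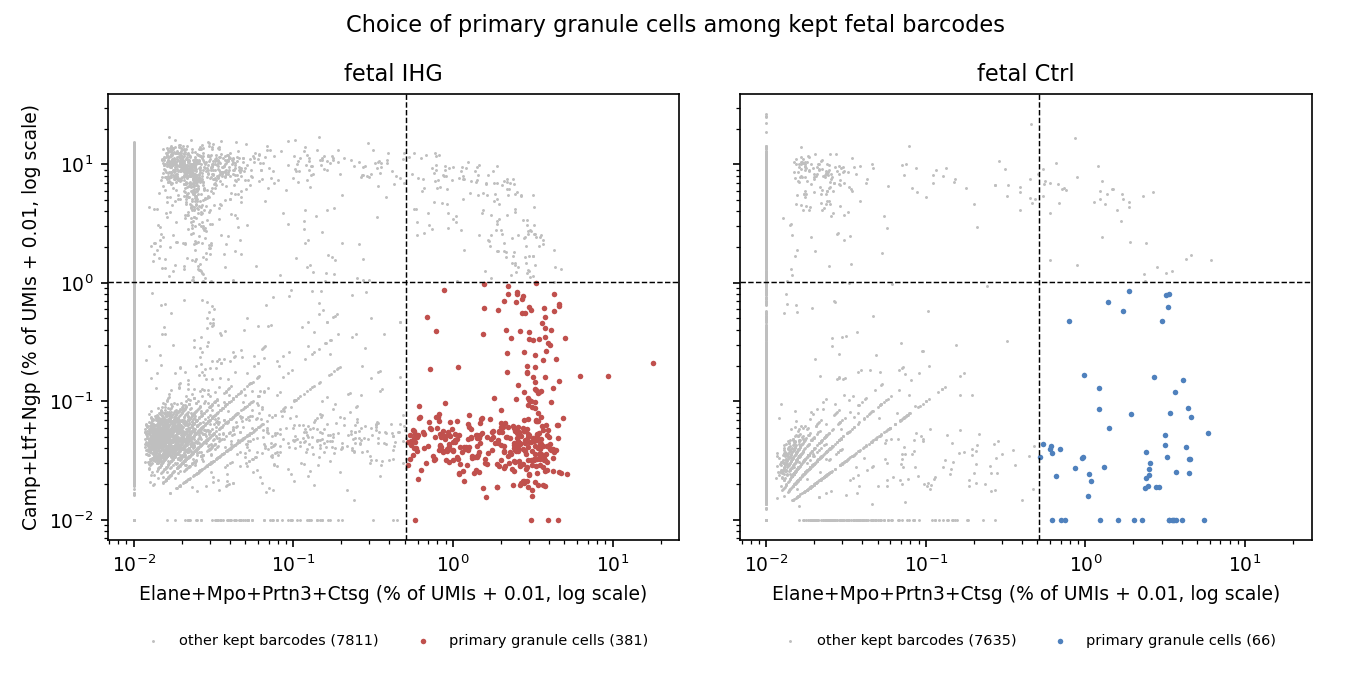
Each point is a kept fetal barcode, placed by its share of UMIs from Elane, Mpo, Prtn3 and Ctsg (x axis) and from Camp, Ltf and Ngp (y axis), both in percent with 0.01 added and on log scales. Dashed lines are the limits of the rule, and the coloured points are the 381 primary granule cells of the IHG library (left) and the 66 of the Ctrl library (right).

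The limits of the rule cut through a continuous range of values. The lowest primary granule share inside was 0.516% in IHG and 0.511% in Ctrl, and the highest outside was 0.500% in IHG and 0.467% in Ctrl. Between 0.5% and 0.6% lay 20 IHG and 4 Ctrl cells, and between 0.4% and 0.5% lay 23 IHG and 3 Ctrl barcodes. The highest secondary granule share inside was 0.992% in IHG and 0.843% in Ctrl, against 1.01% in IHG and 1.02% in Ctrl for the lowest outside.

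The primary granule cells held 5905639 UMIs in IHG and 654237 in Ctrl. Their median depth was 13628 UMIs and 2785 genes in IHG and 8700.5 UMIs and 1878 genes in Ctrl. Haemoglobin made up at least 5% of UMIs in 21 IHG cells (5.51%) and 7 Ctrl cells (10.6%), and 10 IHG and 7 Ctrl cells had fewer than 1000 UMIs. Median mitochondrial shares were 3.85% in IHG and 3.35% in Ctrl. Levels below are CPM, the count of a gene among 1e+06 UMIs summed over the cells of a library. Each ratio divides the IHG by the Ctrl level after 0.5 is added to both counts, and is given as a log2 value.

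The 4 genes that chose the cells are given as a description. Prtn3 stood at 8740 CPM in IHG and 8148 CPM in Ctrl, and Elane at 7213 CPM in IHG and 8411 CPM in Ctrl. Mpo stood at 2875 CPM in IHG and 2962 CPM in Ctrl, and Ctsg at 1635 CPM in IHG and 1451 CPM in Ctrl. In myelocytes of the same libraries Elane was at 923 CPM in IHG and 428 CPM in Ctrl. In barcodes with 20% or more haemoglobin, used as a gauge of free RNA, Elane was at 27.1 CPM in IHG and 13.1 CPM in Ctrl. Primary granule cells with that much haemoglobin were not taken out of these barcodes. The highest primary granule share among these barcodes was 2.96% in IHG and 2.40% in Ctrl, so their levels are not free RNA alone. Primary granule cells carried 65.8% of all Elane UMIs of kept barcodes in IHG and 54.6% in Ctrl. The rule kept the secondary granule genes low. Ngp lay below its summed level in haemoglobin-rich barcodes in both libraries, and Camp did so in IHG. Some of those barcodes met the myelocyte limit, with secondary granule shares of up to 9.83% (IHG) and 8.39% (Ctrl). The median share per barcode was similar in both sets. It was 0.0384% in IHG primary granule cells beside 0.0403%, and 0.0232% in Ctrl primary granule cells beside 0.0216%. Ngp was at 234 CPM in IHG cells and 156 CPM in Ctrl cells, below the 822 CPM (IHG) and 400 CPM (Ctrl) of haemoglobin-rich barcodes. Camp was at 481 CPM in IHG cells and 712 CPM in Ctrl cells, with 696 CPM (IHG) and 390 CPM (Ctrl) in haemoglobin-rich barcodes.

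Genes outside the rule were used to check the name. Ms4a3, a membrane protein known as a marker of granulocyte-monocyte precursors, was at 669 CPM in IHG and 668 CPM in Ctrl, a log2 ratio of 0.00 (-0.14 to 0.15). Myelocytes held 119 CPM of Ms4a3 in IHG and 84.2 CPM in Ctrl, and haemoglobin-rich barcodes 2.78 CPM in IHG and 1.67 CPM in Ctrl. With every cell thinned to 3000 UMIs, 72.6% of 368 IHG cells and 71.2% of 52 Ctrl cells had an Ms4a3 UMI. The corresponding shares in haemoglobin-rich barcodes were 0.548% in IHG and 0.241% in Ctrl, at median depths before thinning of 14810 UMIs in IHG and 12103.5 UMIs in Ctrl. Unthinned, 87.9% of IHG cells and 75.8% of Ctrl cells had an Ms4a3 UMI. Ms4a3 filled at least 0.05% of UMIs in 220 of 381 IHG cells (57.7%) and in 40 of 66 Ctrl cells (60.6%).

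The remainder was mixed. Monocyte lineage markers (Irf8, Ly86, Csf1r, F13a1, Ccr2, Ms4a6c) reached 0.1% of UMIs in 105 IHG cells (27.6%, 23.1 to 32.3) and 9 Ctrl cells (13.6%, 6.43 to 24.3). Both this level and the Ms4a3 level were met by 19 IHG and 2 Ctrl cells, and neither by 75 IHG and 19 Ctrl cells. Basophil, mast cell and eosinophil markers (Prss34, Mcpt8, Cpa3, Ms4a2, Prg2, Epx) reached 0.1% in 8 IHG and 7 Ctrl cells. Their summed level was 128 CPM in IHG and 624 CPM in Ctrl. Of the NK cell markers, Ncr1 and Klrb1c had 0 UMIs in the cells of both libraries, and the granzyme gene Gzma had 39 UMIs in IHG (6.60 CPM, beside 3.51 CPM in haemoglobin-rich barcodes) and 0 in Ctrl. The 2 plasmacytoid dendritic cell markers had 2 UMIs in IHG and 0 in Ctrl. The macrophage genes C1qa, C1qb and C1qc had 0 UMIs in Ctrl cells and 15, 43 and 19 UMIs in IHG cells, below their level in haemoglobin-rich barcodes of the IHG library. The endothelial markers Cdh5 and Stab2 had 12 and 5 UMIs in IHG cells and 0 in Ctrl cells.

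Of the genes reaching 200 CPM here, the 10 with the highest ratio over all other kept fetal barcodes, taken in the library where that ratio was lower, began with the 4 rule genes. Next came Ms4a3, Plac8, Nkg7, Ramp1, Pdia6 and Ap3s1. Plac8 was at 2844 CPM in IHG and 3072 CPM in Ctrl. Ramp1, a partner protein of peptide hormone receptors, was at 470 CPM in IHG and 391 CPM in Ctrl. Nkg7, a granule membrane protein best known from cytotoxic lymphocytes, was at 228 CPM in IHG and 364 CPM in Ctrl. Pdia6, a disulfide isomerase of the endoplasmic reticulum, was at 535 CPM in IHG and 394 CPM in Ctrl.

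**Figure D2:**
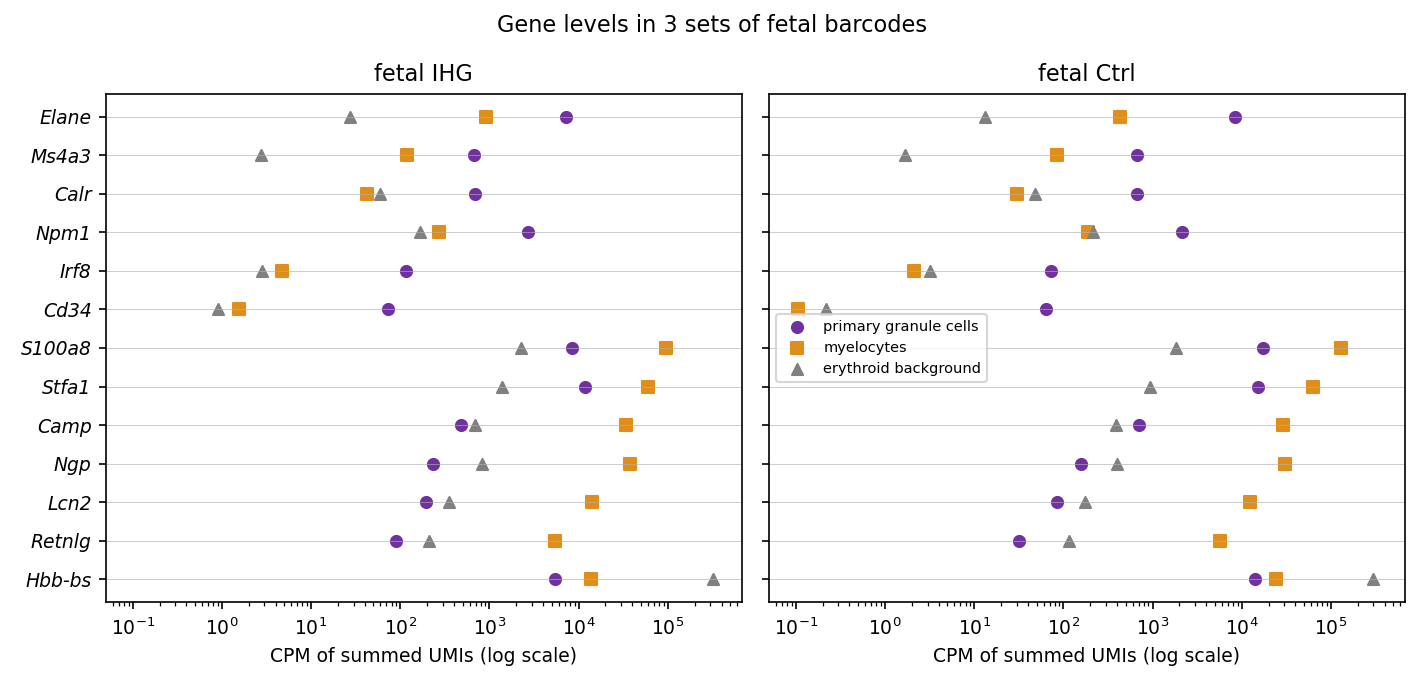
CPM of summed UMIs (log scale) for 13 genes in primary granule cells (circles), myelocytes (squares) and haemoglobin-rich barcodes, called erythroid background (triangles), in the fetal IHG library (left) and the fetal Ctrl library (right). In both libraries Elane, Ms4a3, Calr, Npm1, Irf8 and Cd34 were highest in primary granule cells, while S100a8, Stfa1, Camp, Ngp, Lcn2 and Retnlg were highest in myelocytes. Elane, Camp and Ngp were used to choose these sets, so their order follows from the choice and is not a result.

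Beside myelocytes of the same library, the cells held more RNA of progenitor, nucleolar and protein-folding genes and less of late granule genes. Cd34, a surface protein of stem and progenitor cells, was at 73.8 CPM in IHG and 64.2 CPM in Ctrl primary granule cells, against 1.56 CPM (IHG) and 0.106 CPM (Ctrl) in myelocytes. Npm1, a chaperone of the nucleolus, was at 2712 CPM in IHG and 2161 CPM in Ctrl, against 275 CPM (IHG) and 191 CPM (Ctrl) in myelocytes. Calr, a calcium-binding chaperone of the endoplasmic reticulum, was at 688 CPM in IHG and 677 CPM in Ctrl, against 42.4 CPM (IHG) and 30.1 CPM (Ctrl) in myelocytes. The transcription factor Cebpe, which drives the step to myelocytes, was lower than in myelocytes, with 66.7 CPM in IHG and 109 CPM in Ctrl against 302 CPM (IHG) and 178 CPM (Ctrl) in myelocytes. S100a8, an alarmin subunit that floods later neutrophils, was at 8512 CPM in IHG and 17315 CPM in Ctrl, against 96252 CPM (IHG) and 129426 CPM (Ctrl) in myelocytes. Lcn2 and Retnlg, late granule genes, were lower in primary granule cells than in haemoglobin-rich barcodes of the same library. Lcn2, singled out after its values were seen, was at 196 CPM in IHG and 84.1 CPM in Ctrl, against 353 CPM (IHG) and 173 CPM (Ctrl) in those barcodes. Its higher level in IHG cells lies below the level in those barcodes and is not read as expression. Those barcodes were not cleared of myelocytes, so their level is not free RNA alone.

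The cells were then split by the share of the 4 rule genes into bands of 0.5 to 1%, 1 to 2%, 2 to 3% and 3% or more. These held 73, 82, 105 and 121 cells in IHG and 15, 13, 12 and 26 cells in Ctrl. Median depth in these bands was 19434, 20099, 13930 and 10371 UMIs in IHG and 11955, 5917, 10895.5 and 7392 UMIs in Ctrl. The bands are cut by the rule genes, so Elane and Prtn3 must increase along them. Mpo did not keep pace and stood at 1909, 3034, 3356 and 3158 CPM in IHG and at 2502, 3429, 3606 and 2680 CPM in Ctrl.

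The summed level of 6 early granulocyte markers outside the rule (Ms4a3, Prss57, Ctsc, Fcnb, Cebpe, Gfi1) was 792, 831, 1530 and 2165 CPM in IHG and 425, 865, 1465 and 1989 CPM in Ctrl, from the lowest band to the highest. Its members did not all run this way. Ms4a3 was at 110, 333, 913 and 1446 CPM in IHG and at 95.1, 437, 846 and 1288 CPM in Ctrl. Cebpe was at 19.8, 39.5, 92.6 and 124 CPM in IHG and at 50.04, 95.2, 155 and 145 CPM in Ctrl. Srgn, whose proteoglycan serglycin packs proteases into granules, was at 990, 1225, 2428 and 3559 CPM in IHG and at 1291, 2588, 3040 and 4529 CPM in Ctrl. Stfa1, a stefin that inhibits cysteine proteases, was at 3467, 5250, 14965 and 25588 CPM in IHG and at 380, 11858, 15338 and 32924 CPM in Ctrl. Serpinb1a, an inhibitor of neutrophil serine proteases, was at 215, 227, 314 and 389 CPM in IHG and at 140, 373, 390 and 452 CPM in Ctrl. Ctsc, whose product cathepsin C activates the granule serine proteases, ran against the rest of the markers, at 555, 332, 210 and 78.3 CPM in IHG and at 230, 190, 88.3 and 15.6 CPM in Ctrl.

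Monocyte and progenitor genes ran the other way. Irf8, a factor that favours the monocyte over the granulocyte fate, was at 202, 156, 72.4 and 23.7 CPM in IHG and at 150, 87.3, 44.2 and 0 CPM in Ctrl. Ms4a6c was at 386, 298, 167 and 48.3 CPM in IHG and at 235, 190, 155 and 26.0 CPM in Ctrl. Cd34 was at 140, 100.3, 35.2 and 11.1 CPM in IHG and at 130, 87.3, 36.8 and 0 CPM in Ctrl. Lyz2, the lysozyme of monocytes and later neutrophils, was at 1387, 670, 303 and 134 CPM in IHG and at 751, 579, 162 and 57.1 CPM in Ctrl. Kit showed no such slope, with 36.1 to 53.0 CPM in IHG and 29.4 to 55.6 CPM in Ctrl. The summed early granulocyte markers were thus highest in the bands of 2% and more, with Ctsc as an exception, and the lower bands held more RNA of these monocyte and progenitor genes.

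**Figure D3:**
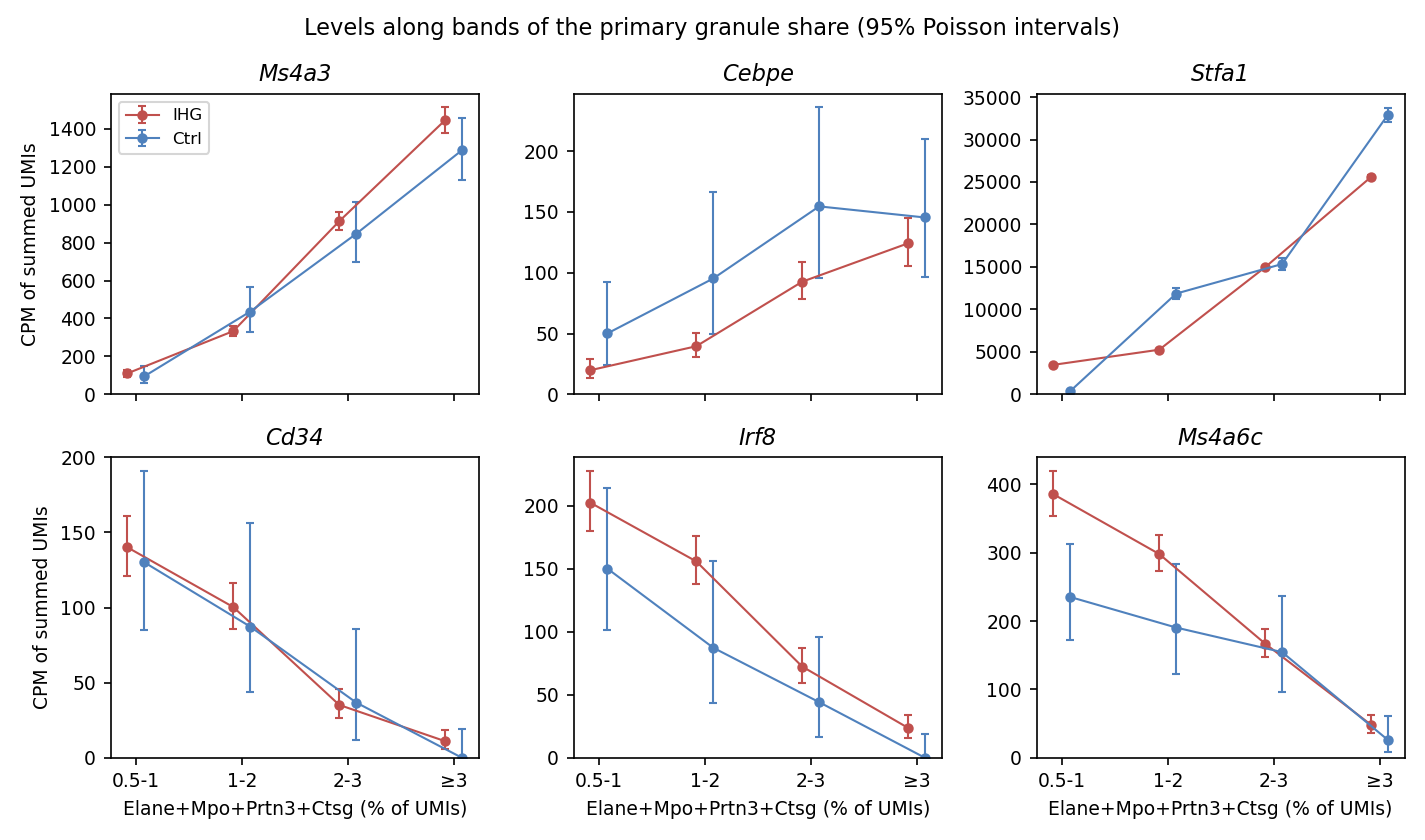
CPM of summed UMIs with exact 95% Poisson intervals for 6 genes along 4 bands of the primary granule share (percent of UMIs), in IHG cells (red) and Ctrl cells (blue). Ms4a3, Cebpe and Stfa1 were higher in the highest band than in the lowest, and Cd34, Irf8 and Ms4a6c were lower, in both libraries.

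The next comparison asks how the RNA content of these cells differed between offspring of hyperglycemic and control mothers. Of 32285 genes, 6953 had at least 50 UMIs over both libraries, and the median log2 ratio of these was 0.14, with 4327 (62.2%) higher in IHG. Counts of list members on the higher side are to be read against that share. The minimum was summed over both libraries, and IHG cells held 5905639 UMIs against 654237 in Ctrl cells. A gene high in IHG therefore passes the minimum more easily than one high in Ctrl. The median of all genes was -0.07 at a minimum of 1 UMI and 0.16 at 500 UMIs. Past a 2-fold difference lay 465 genes on the higher side (6.69% of those measured) and 170 on the lower side (2.44%). Counts of list members past 2-fold are to be read against these shares. Among 618 well-covered genes (200 CPM or more in a library, 100 UMIs or more in all, without mitochondrial, ribosomal protein, haemoglobin, antigen receptor and sex-linked genes), 5 were past 2-fold on the higher side and 12 on the lower side. The higher genes were F630028O10Rik (1.52), Ctsc (1.20), Hist1h1b (1.17), F13a1 (1.09) and Srrm2 (1.08). All 5 were also higher in IHG in the other kept fetal barcodes, so these differences are not particular to primary granule cells. In those barcodes F630028O10Rik was at 112 CPM (IHG) and 33.0 CPM (Ctrl), and Ctsc at 87.0 CPM (IHG) and 32.7 CPM (Ctrl). Hist1h1b was at 686 CPM (IHG) and 365 CPM (Ctrl) there, F13a1 at 34.7 CPM (IHG) and 10.4 CPM (Ctrl), and Srrm2 at 224 CPM (IHG) and 114 CPM (Ctrl). F13a1, for a coagulation factor subunit made by monocytes, was at 255 CPM in IHG and 119 CPM in Ctrl, but its log2 ratio was -0.18 after thinning to 1000 UMIs. The 12 lower genes were Prg2, Cxcl10, Klf2, Nfkbia, Gm42418, Crip1, Ccl4, Klf6, Junb, Jun, S100a8 and Slpi. Gm42418, which overlaps ribosomal RNA sequence, was at 631 CPM in IHG and 1784 CPM in Ctrl (-1.50). The lowest, Prg2, an eosinophil granule gene, was at 15.1 CPM in IHG and 419 CPM in Ctrl, but 247 of its 274 Ctrl UMIs came from 1 cell, and its log2 ratio was 0.17 with primary granule genes at 1% or more.

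Cargo of primary granules outside the rule did not differ in 1 direction. Of 11 measured members 4 were higher and 7 lower in IHG. Their median was -0.15, and 1 was past 2-fold on each side. Ctsc was at 299 CPM in IHG and 130 CPM in Ctrl, a log2 ratio of 1.20 (0.89 to 1.53). Cd63, a tetraspanin of the granule membrane, was at 275 CPM in IHG and 530 CPM in Ctrl, a log2 ratio of -0.95 (-1.12 to -0.78). Srgn was at 1981 CPM in IHG and 2857 CPM in Ctrl (-0.53, -0.60 to -0.46), and Prss57 at 115 CPM in IHG and 165 CPM in Ctrl (-0.52, -0.81 to -0.21). Ctsc and Cd63 were higher and lower in IHG in each of the 4 bands, while Prss57 had 0 UMIs in the Ctrl band of 1 to 2%.

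Cargo of secondary and tertiary granules had a median log2 ratio of 0.30 over 13 measured members, of which 8 were higher and 5 lower. Its most abundant members were lower in IHG. S100a8 had a log2 ratio of -1.02 (-1.05 to -0.99) and its partner S100a9 one of -0.70 (-0.74 to -0.66), at 6524 CPM in IHG and 10589 CPM in Ctrl. The difference changed side between bands, since S100a8 was at 4650, 3860, 10101 and 17140 CPM in IHG and at 1231, 18843, 13888 and 35428 CPM in Ctrl. Hp, for haptoglobin, was at 739 CPM in IHG and 514 CPM in Ctrl (0.52, 0.36 to 0.69), and higher in IHG in each band. The list median turned to -0.44, over 9 measured members, when barcodes were thinned to 1000 UMIs before the choice. It was 0.90 with each cell weighted equally.

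Protease inhibitors had a median of -0.00, with 4 of 9 measured members higher and 5 lower. Slpi, a secreted inhibitor of elastase and cathepsin G, was at 188 CPM in IHG and 376 CPM in Ctrl (-1.0, with an interval of -1.2 to -0.79). Stfa1 was at 11699 CPM in IHG and 15274 CPM in Ctrl (-0.38), and Cst3, for cystatin C, at 1025 CPM in IHG and 770 CPM in Ctrl (0.41). All 6 subunits of the NADPH oxidase, which makes superoxide, were within 0.29 of 0 on the log2 scale. Among haem synthesis genes, Alas1, the first enzyme of the pathway outside red cells, was at 170 CPM in IHG and 110 CPM in Ctrl (0.62, 0.28 to 1.00), and the list median was 0.02.

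Granulocyte transcription factors had a median of 0.28, with 11 of 16 higher, near the 62.2% of all genes, and 5 lower. Of the lower ones 2 were past 2-fold. These 2 were Gata2 (-1.49) and Id1 (-1.68), and without the cells rich in basophil, mast cell and eosinophil markers Gata2 was at 0.06. Cebpe was lower in IHG (-0.71, -1.07 to -0.32) in primary granule cells and higher in IHG in myelocytes (0.76). Irf8 was at 117 CPM in IHG and 71.8 CPM in Ctrl (0.69, 0.28 to 1.16), but at -0.14 on the log2 ratio scale in cells of 3000 to 15000 UMIs. Cebpb, a factor of stress granulopoiesis, was at 472 CPM in IHG and 387 CPM in Ctrl (0.28), Spi1, for PU.1, at 243 CPM in IHG and 232 CPM in Ctrl (0.06), and Myb at 133 CPM in IHG and 102 CPM in Ctrl (0.37). The list median was -0.22 in cells of 3000 to 15000 UMIs, with 12 members measured, and -0.07 after thinning to 1000 UMIs, with 4 measured. Receptors for cytokines and adhesion had a median of 0.16, and none of the 19 measured was past 2-fold.

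For 5 of the 6 monocyte lineage markers the IHG level was the higher one, and the median of the 6 log2 ratios was 0.66. Their summed level was higher in IHG in each band, with log2 ratios of 0.55 (0.32 to 0.80), 0.98 (0.61 to 1.39), 0.52 (0.12 to 0.98) and 1.61 (0.89 to 2.55) from the lowest band to the highest. Monocyte lineage markers were also higher in IHG outside these cells. They summed to 23.3 CPM (IHG) and 8.70 CPM (Ctrl) in haemoglobin-rich barcodes. In other kept barcodes they summed to 152 CPM (IHG) and 64.9 CPM (Ctrl), and in myelocytes their median log2 ratio was 1.05. In primary granule cells Ms4a6c was at 231 CPM in IHG and 148 CPM in Ctrl (0.64), and Ly86 at 78.2 CPM in IHG and 42.8 CPM in Ctrl (0.85). B cell markers were lower in IHG in 5 of 5 members and erythroid markers in 4 of 4 measured. The B cell markers summed to 89.7 CPM in IHG and 269 CPM in Ctrl. In haemoglobin-rich barcodes the B cell markers summed to 68.9 CPM (IHG) and 175 CPM (Ctrl), also lower in IHG. Both measured mature neutrophil markers, Il1b and Retnlg, were past 2-fold on the higher side (median 1.52), at a summed level for the list of 145 CPM in IHG and 52.0 CPM in Ctrl, beside 236 CPM (IHG) and 129 CPM (Ctrl) in haemoglobin-rich barcodes. From the lowest band to the highest this sum had log2 ratios of 1.40, -0.23, 1.13 and 3.48. The last (2.28 to 5.54) rested on 330 UMIs in IHG, at 261 CPM, and 4 UMIs in Ctrl. All 3 measured hepatocyte markers were higher in IHG (median 1.62), at a summed 73.5 CPM in IHG and 30.6 CPM in Ctrl, below the 112 CPM (IHG) and 153 CPM (Ctrl) of haemoglobin-rich barcodes. Hbb-bs, a haemoglobin gene, was at 5501 CPM in IHG and 14082 CPM in Ctrl. The part of these other lineages in the ratios of single genes was not tested beyond the alternatives given here.

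Immediate-early genes, which are switched on within minutes by growth factors and by stress, dissociation included, were lower in IHG. Of 15 measured members 14 were lower and 1 higher, 9 and 1 of them past 2-fold, beside 2.44% and 6.69% of all genes measured. The median log2 ratio was -1.11 beside 0.14 for all genes measured. The member on the higher side was Nr4a1 (1.25, 0.51 to 2.23), singled out after its value was seen. Klf2 was at 97.5 CPM in IHG and 425 CPM in Ctrl, a log2 ratio of -2.12 (-2.33 to -1.91). Jun, the AP-1 partner of Fos, was at 250.1 CPM in IHG and 526 CPM in Ctrl (-1.07, -1.24 to -0.90). Fos was at 184 CPM in IHG and 283 CPM in Ctrl (-0.62, -0.84 to -0.39; 0.17 after thinning to 1000 UMIs), and Junb at 129 CPM in IHG and 277 CPM in Ctrl (-1.11, -1.34 to -0.86).

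The list was lower in IHG in each band. Summed over its genes it stood at 2897, 2109, 1192 and 688 CPM in IHG and at 5374, 4524, 1987 and 1828 CPM in Ctrl. The log2 ratios were -0.89 (-0.99 to -0.79), -1.10 (-1.23 to -0.97), -0.74 (-0.92 to -0.55) and -1.41 (-1.59 to -1.23). The level was thus lower in the cells richest in protease RNA in both libraries, and the gap between libraries was present at each level. In cells of 3000 to 15000 UMIs (205 IHG, 39 Ctrl) the list median was -1.35, and with primary granule genes at 2% or more it was -0.74. In myelocytes it was -0.14, with Fos at 0.36, Jun at 0.10 and Klf2 at -0.53.

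NF-kB targets and inflammatory genes had a median of -0.74, with 8 of 11 measured members lower and 3 higher. Past 2-fold on the lower side were Tnfaip3, Nfkbia, Ier3, Ccl4 and Tnf, and on the higher side Il1b (1.59, 0.75 to 2.73), also a mature neutrophil marker. With primary granule genes at 2% or more, Tnfaip3 was at 0.82 on the log2 ratio scale, from 7 UMIs in all. Nfkbia, the inhibitor that NF-kB induces against itself, was at 127 CPM in IHG and 433 CPM in Ctrl (-1.77, -1.97 to -1.57). With cells thinned to 3000 UMIs, 26.6% of IHG and 55.8% of Ctrl cells had an Nfkbia UMI, beside 49.0% (IHG) and 39.9% (Ctrl) of haemoglobin-rich barcodes. Ccl4, a chemokine gene, was at 318 CPM in IHG and 769 CPM in Ctrl (-1.28, -1.42 to -1.13). Most of that difference lay in the lowest band, with 633 CPM in IHG and 2147 CPM in Ctrl. Ccl4 was higher in IHG in the next 2 bands (388 CPM in IHG and 357 CPM in Ctrl, then 168 CPM in IHG and 103 CPM in Ctrl). In the highest band, with few UMIs, Ccl4 was again lower in IHG. Of 503 Ccl4 UMIs in Ctrl, 162 came from 1 cell.

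With primary granule genes at 2% or more the list median was -0.13, over 6 measured members. Without the cells rich in basophil, mast cell and eosinophil markers it was -0.35, over 10 measured members. In myelocytes the list median was -1.06. Interferon response genes had a median of -0.05, with 7 of 14 higher and 7 lower. Past 2-fold on the lower side were Ifit1, Cxcl10, Isg15, Rsad2 and Ifi27l2a. Of 62 Ifit1 UMIs in Ctrl, 40 came from 1 cell. Without each gene's highest cell the list median was 0.42, beside 0.34 for all genes in that setting. Cxcl10 was at 59.9 CPM in IHG and 368 CPM in Ctrl (-2.62, -2.86 to -2.38), spread over 82 of 381 IHG cells and 22 of 66 Ctrl cells. Isg15 and Rsad2 were lower in the cells of both libraries than in haemoglobin-rich barcodes. Ifitm3, the most abundant member, was at 837 CPM in IHG and 601 CPM in Ctrl (0.48, 0.33 to 0.63), and at a log2 ratio of -0.09 without the cells rich in monocyte markers.

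**Figure D4:**
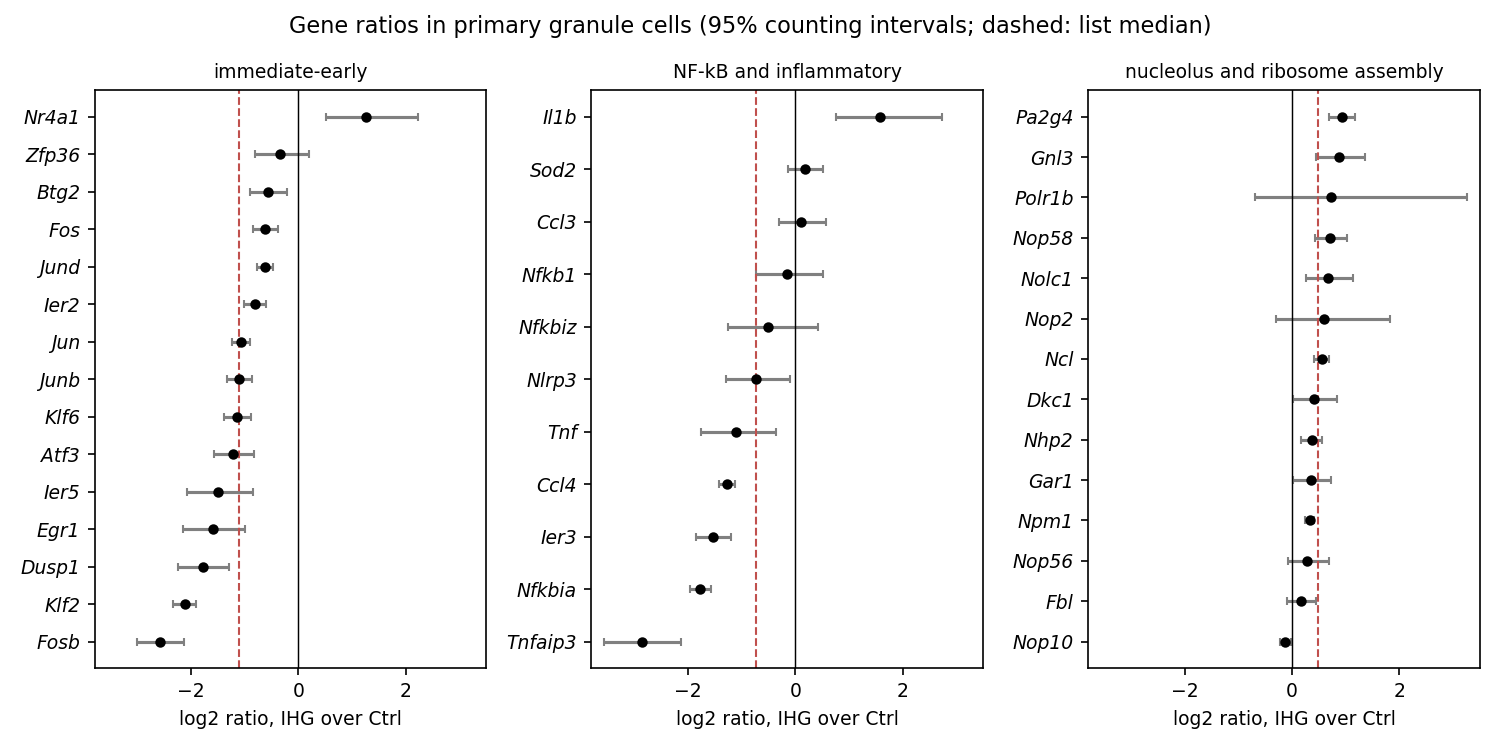
Log2 ratios, IHG over Ctrl, of the measured members of 3 lists in primary granule cells, with 95% counting intervals (bars), the list median (dashed line) and a line at 0. Immediate-early genes lay below 0 except Nr4a1, NF-kB and inflammatory genes were split 3 to 8, and genes of the nucleolus lay above 0 except Nop10.

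Genes of ribosome assembly and of mitosis had ratios above the median of all genes. Nucleolus and ribosome assembly genes had a median log2 ratio of 0.48, with 13 of 14 higher, none past 2-fold. Ncl, for nucleolin, was at 1035 CPM in IHG and 705 CPM in Ctrl (0.55, 0.42 to 0.69), Npm1 had a log2 ratio of 0.33 (0.25 to 0.41), and Pa2g4, a growth-linked ribosome factor, was at 452 CPM in IHG and 237 CPM in Ctrl (0.93, 0.70 to 1.17). The summed level was higher in IHG in each band, with log2 ratios of 0.21, 0.50, 0.43 and 0.17. In cells of 3000 to 15000 UMIs the median was 0.18, beside 0.08 for all genes measured there. In myelocytes it was 0.52, beside 0.26 for all genes.

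G2/M genes, which drive chromosome separation, had a median of 0.63, with 17 of 18 higher, beside 62.2% of all genes. Past 2-fold on the higher side were 5, beside 6.69% of all genes, namely Plk1, Aurkb, Tpx2, Cenpf and Ccnb1. Aurkb was at -0.46 and Ccnb1 at -0.52 after thinning to 1000 UMIs, and Cenpf was at -0.14 in cells of 3000 to 15000 UMIs. Top2a, the topoisomerase that untangles chromosomes, was at 213 CPM in IHG and 130 CPM in Ctrl (0.70, 0.39 to 1.05), or at a log2 ratio of -0.32 with each cell weighted equally. Cdk1, the kinase that starts mitosis, was at 180 CPM in IHG and 115 CPM in Ctrl (0.64, 0.31 to 1.01). Hmgb2, the most abundant member, was at 1737 CPM in IHG and 1707 CPM in Ctrl (0.02), and Mki67 was the member on the lower side (-0.21, -0.53 to 0.14). In cells of 3000 to 15000 UMIs the list median was 0.10, over 15 measured members, close to the 0.08 of all genes measured there. The median depth of all primary granule cells was 13628 UMIs in IHG and 8700.5 UMIs in Ctrl, and the part of depth in the G2/M ratios was not tested beyond this. S phase genes, for copying DNA, had a median of 0.16, close to that of all genes.

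The folding machinery of the endoplasmic reticulum had a median of 0.22, with 13 of 18 higher, near the share of all genes, and 5 lower. Hsp90b1, the resident chaperone of that family, was at 1015 CPM in IHG and 816 CPM in Ctrl (0.31, 0.19 to 0.45), and Hspa5, for BiP, at 629 CPM in IHG and 488 CPM in Ctrl (0.36, 0.20 to 0.54). Calr did not differ beyond counting error (0.02, -0.12 to 0.17), and Ddit3, a stress-induced factor, was past 2-fold on the lower side (-1.32, -2.15 to -0.31). Heat shock genes had a median of 0.19, and Hspd1, the chaperonin of mitochondria, was at 766 CPM in IHG and 445 CPM in Ctrl (0.78, 0.61 to 0.96). Hspa1a and Dnajb1, the inducible members singled out by a count of 2, were past 2-fold on the lower side (-1.50 and -1.20). Hspa1a turned to 0.037 with primary granule genes at 1% or more and to 1.53 after thinning to 1000 UMIs. Glycolysis (0.12) and oxidative phosphorylation (0.08) had medians below that of all genes, and Ldha was at 634 CPM in IHG and 475 CPM in Ctrl (0.41).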

How the data were processed

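Single-cell 3′ RNA libraries (10x Genomics, kit v2 per the labels' protocols) were made from 2 pooled fetal and 2 pooled adult liver suspensions. The deposited values are UMI counts per gene and barcode for 32285 genes, and per the file headers Cell Ranger 5.0.0 wrote them. The submitters' processing notes name mm10, Cell Ranger and Seurat, the last with no step. The 4 tables hold barcodes of at least 500 UMIs, and total counts were 105382968 (fetal IHG), 77874423 (fetal Ctrl), 19366065 (adult IHG) and 17987173 (adult Ctrl).

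Barcodes that met the rule were summed per library and scaled to CPM. Genes were measured with at least 50 UMIs over both fetal libraries and called past a 2-fold ratio. Shares carry Clopper-Pearson and ratios exact conditional Poisson 95% intervals. With 1 library per group no test was run. UMIs are counted molecules, and intervals and limits of 3 counts for a count of 0 cover counting error only. Barcodes with 20% or more haemoglobin UMIs served as a gauge of free RNA. Primary granule cells and myelocytes that reached this haemoglobin share were not taken out of them. Doublets were kept. Scrublet (scanpy 1.11.5) called 269 IHG barcodes (3.28%) and 132 Ctrl barcodes (1.71%), 6 of them primary granule cells. Rows that share a symbol were summed.

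The members, the 30 gene lists (13 of them cell type markers) and the alternatives were chosen with earlier results of these data known. Named genes were the rule genes, up to 6 of the most abundant members of each list, the 12 highest and 12 lowest ratios, and the 10 genes highest over other barcodes. Aurkb, Ccnb1, Cenpf, Ddit3, Dnajb1, Gata2, Gzma, Hspa1a, Id1, Lcn2, Mki67, Nr4a1, Plk1, Rsad2, Tnf, Tnfaip3 and Tpx2 were named after their values were seen. All 331 gene IDs looked up were in GENCODE M21. Interval and count steps were tested on simulated data. The scripts ran on scipy 1.17.1, numpy 2.4.6, pandas 2.3.3, matplotlib 3.10.9 and Python 3.11.15.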

Additional observations from a re-analysis of the deposited data

How the results depend on the processing

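The higher IHG share of primary granule cells stayed between 2.21 and 2.66 on the log2 scale under 10 other settings. It was 3.68 when chosen by Ms4a3, Prss57, Ctsc and Fcnb, of which Ctsc was itself higher in IHG. Genes past 2-fold, 465 higher and 170 lower in IHG, moved most with the minimum count: 752 and 436 at 20 UMIs, 1158 and 2961 at 1 UMI, and 30 and 15 at 500 UMIs. They were 842 and 522 with each cell weighted equally, 962 and 97 without each gene's highest cell, 165 and 77 in cells of 3000 to 15000 UMIs, and 77 and 17 after thinning to 1000 UMIs. With primary granule genes at 2% or more, 58 genes were lower. The median of all genes was 0.06 under median-of-ratios scaling. It was 0.34 without each gene's highest cell, a setting in which the library totals were not lowered.

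Of 272 values of list medians under the alternatives, 262 stayed within the median counting interval of the list's genes, 7 moved outside it and 3 turned. A turn was counted only where the main median was at least 0.25 from 0. Medians nearer 0 could change sign and still count as unchanged. The interferon response median, for example, was -0.05 and became 0.23 with primary granule genes at 1% or more. Transcription factors turned to -0.22 in cells of 3000 to 15000 UMIs and to -0.074 after thinning, and secondary and tertiary granule cargo to -0.44 after thinning. The immediate-early median stayed between -1.38 and -0.60. Of 1488 values of named genes, 28 turned. With primary granule genes at 1% or more, Ccl4 was at 0.41, Hspa1a at 0.037 and Prg2 at 0.17. At 2% or more, Ccl4 was at 0.37, Cebpb at -0.19 and Tnfaip3 at 0.82. With secondary granule genes under 0.25%, Camp was at 0.53. In cells of 3000 to 15000 UMIs, Camp was at 0.065, Cenpf at -0.14, Irf8 at -0.14, Myb at -0.11, Serpinb1a at 0.033 and Stfa1 at 0.11. Without cells rich in monocyte markers Ifitm3 was at -0.086, and without those rich in basophil, mast cell and eosinophil markers Gata2 was at 0.059. With each cell weighted equally, Hspa5 was at -0.093, Myb at -0.29 and Top2a at -0.32. After thinning to 1000 UMIs, Aurkb was at -0.46, Ccnb1 at -0.52, Cebpb at -0.086, Ctsg at -0.27, F13a1 at -0.18, Fos at 0.17, Gata2 at 0.45, Hspa1a at 1.53, Myb at -0.27 and Ramp1 at -0.035. The causes were not tested. The settings without each gene's highest cell, the 500-UMI minimum and those without cells of other lineages were chosen after seeing the data.

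No paired analysis was possible because each group is 1 pooled library. The 66 Ctrl cells limit what can be seen: a gene with 10 UMIs there has an interval more than 1 log2 unit wide, and no replicate shows how litters or dissociations vary.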

Other observations

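Barcodes with both granule programmes, at least 0.5% from the 4 primary and at least 1% from the 3 secondary granule genes, numbered 164 in IHG and 44 in Ctrl. Their median primary granule share was 1.78% in IHG and 1.29% in Ctrl, and their median secondary granule share was 4.11% in IHG and 5.09% in Ctrl. These barcodes count as myelocytes in the report.

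No UMI of Camp, Ltf or Ngp was found in 4 of 381 IHG primary granule cells (1.05%) and in 15 of 66 Ctrl cells (22.7%). The median depth of these cells was 2882 UMIs in IHG and 6592 UMIs in Ctrl. Haemoglobin-rich barcodes, used as a gauge of free RNA, held 696 CPM of Camp in IHG and 390 CPM in Ctrl. Ngp was at 822 CPM in IHG and 400 CPM in Ctrl in these barcodes, which were not cleared of myelocytes.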
